A study of Mus musculus with 27 samples.

Results

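The microRNAs described here come from the upstream stretch of Mirg, the last of the maternally expressed noncoding genes of the imprinted Gtl2-Rian-Mirg region on mouse chromosome 12. They were taken by position alone: every locus of the microRNA tables on chromosome 12, on either strand, from the first base of miR-379-5p to a limit 387 bp beyond the last base of miR-487b-3p (mm9 coordinates). This gave 46 mature microRNA loci of 2035 in the tables, 44 on the plus strand and 2 on the minus strand. They are the 5p and 3p arms of 23 hairpins, which run from miR-379 at chr12:110947275 to miR-487b at chr12:110965613, a span of 18339 bp. The last hairpin inside the limits is thus miR-487b, which lies 518 bp beyond miR-381, start to start.

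The cells were CJ7, a line of mouse embryonic stem (ES) cells, either wild-type or lacking Eed, Ezh2 or Jarid2 (Eed-/-, Ezh2-/- and Jarid2-/-), grown in serum with leukemia inhibitory factor (LIF). Eed and Ezh2 are core subunits of PRC2, the Polycomb complex that methylates histone H3 at lysine 27, and Ezh2 carries the catalytic domain. Jarid2 is a substoichiometric partner that helps PRC2 to find its targets. The title of the series names PRC2 and DNA methylation at the maternal copy of this locus, and the question asked here is how the level of each microRNA of the stretch differed among the 4 genotypes. Of 27 samples in the series 7 are small RNA libraries, 1 for Jarid2-/- and 2 for each of the other genotypes, and the data used are 4 tables of read counts with 1 column per genotype. Whether a column holds 1 library or pools 2 is not stated, nor is how many independently derived lines stand behind a genotype. The wild-type column carries the name of the parental line and no mutant gene, so its assignment is the least direct.

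With a lone column for each genotype, the spread between replicates is unknown and no difference could be tested. Levels are CPM, a locus's count scaled to a common total of microRNA counts in its column, and folds are ratios of CPM with nothing added. Intervals in parentheses are exact 95% binomial intervals for counting error alone. PCR copies of 1 molecule are counted as several reads, so the real error is wider. Column totals ran from 8485806 counts in Jarid2-/- to 42293019 in Eed-/-. A count of 0 allows a level of up to 3 counts, which was 0.126 CPM in wild-type, 0.0709 CPM in Eed-/-, 0.0935 CPM in Ezh2-/- and 0.354 CPM in Jarid2-/-. Where a mutant had 0 counts, a fold given as "at least" is the lower end of the exact 95% interval. The microRNAs that mark ES cells were abundant in every column: those of the miR-290 cluster made up between 38.2% and 45.9% of counts and those of miR-302 and miR-367 between 0.522% and 1.56%. The marker lists of muscle and endoderm each stayed at or below 0.00377%, while the neural list ran from 0.0596% in Jarid2-/- to 0.543% in Ezh2-/-, the blood list from 0.287% to 0.934% in the same columns, and the fibroblast list from 0.0585% in Ezh2-/- to 0.167% in wild-type. The part of these lists in the results below was not tested.

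A microRNA hairpin is cut from a long primary transcript by Drosha and then by Dicer, and either arm can be loaded into an Argonaute protein, where its bases 2 to 8, the seed, find target messenger RNAs. Hairpins of Mirg sit in a row on the plus strand and are made from the transcript of the maternal chromosome, since the paternal copy is silenced by imprinting. In mammals this microRNA array is best known from embryo, placenta and brain, and in neurons it is induced by activity through the transcription factor Mef2. Primary transcripts of the miR-376 family are classical substrates of adenosine-to-inosine editing.

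The mature sequences, as deposited, are shown for the microRNAs on which the results turn, 5′ to 3′, with the seed in capitals. Of the 46 sequences 44 were identical to the mature entries of RefSeq (build GRCm38.p6), and miR-376c-3p and miR-487b-3p were not matched by name. The 46 loci held 41 different seeds, and 5 seeds were shared by 2 members each. The first set shows the most abundant microRNA of the array's first hairpin with the members that share a seed with either of its arms:
miR-379-5p: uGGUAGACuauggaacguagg
miR-1193-5p: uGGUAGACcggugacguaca
miR-379-3p: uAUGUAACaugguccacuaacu
miR-411-3p: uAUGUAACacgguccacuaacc
The miR-376 family has 3 hairpins, with miR-654 between miR-376c and miR-376b, and their 3p arms differ in the seed:
miR-376a-3p: aUCGUAGAggaaaauccacgu
miR-376b-3p: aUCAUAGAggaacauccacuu
miR-376c-3p: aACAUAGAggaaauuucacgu
miR-376b-5p: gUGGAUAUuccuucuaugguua
miR-376c-5p: gUGGAUAUuccuucuauguuua
MiR-300-3p and miR-381-3p are near-copies, and miR-543-3p and miR-495-3p end on the same 12 bases:
miR-300-3p: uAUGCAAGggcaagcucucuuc
miR-381-3p: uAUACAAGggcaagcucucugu
miR-543-3p: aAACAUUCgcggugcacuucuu
miR-495-3p: aAACAAACauggugcacuucuu
The remaining abundant or divergent members named below are:
miR-494-3p: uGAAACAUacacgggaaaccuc
miR-329-3p: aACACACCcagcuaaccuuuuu
miR-323-3p: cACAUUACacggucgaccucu
miR-666-3p: gGCUGCAGcgugaucgccugcu
miR-666-5p: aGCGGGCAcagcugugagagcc
miR-380-3p: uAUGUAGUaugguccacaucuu
miR-667-5p: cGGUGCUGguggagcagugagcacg
The arms of miR-299b, annotated on the minus strand opposite to miR-299a on the plus strand, lie within those of miR-299a:
miR-299a-5p: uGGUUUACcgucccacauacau
miR-299b-5p: gGUUUACCgucccacauacau
miR-299a-3p: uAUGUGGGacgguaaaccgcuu
miR-299b-3p: uAUGUGGGacgguaaacc

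Several of these sequences differ by only a few bases. Positions are counted from 1 at the 5′ end of the microRNA named first, and the base of that microRNA is written first. MiR-300-3p and miR-381-3p share an unbroken run of 16 bases and differ by 3 substitutions, G4A, U21G and C22U, of which G4A lies in the seed. MiR-376b-5p and miR-376c-5p share their first 18 bases and their seed, and going from miR-376c-5p to miR-376b-5p they differ by U19G alone. From miR-376b-3p to miR-376a-3p the changes are A4G, C13A and U20G. MiR-379-3p differs from miR-411-3p by U10C and U22C, so the shared seed AUGUAAC is untouched. The letters GGUCNAC, searched on the mature strand with N for any base, occurred in 6 of the 46 members, all of them 3p arms (miR-379-3p, miR-411-3p, miR-380-3p, miR-1197-3p, miR-323-3p and miR-758-3p), and in 9 of all 2035 loci (0.442%), 1 of which lay outside the Gtl2-Rian-Mirg region. Another motif, GGUNGAC, occurred in 6 members, 5 of them 5p arms, and in 13 of all 2035 loci (0.639%), 4 of which lay outside the region. Both motifs were picked after the sequences had been read.

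In wild-type cells the stretch was a substantial source of microRNAs. Its 46 loci gave 525169 counts, or 2.21% (2.20 to 2.21%) of all microRNA counts and 45.4% of the counts of the whole Gtl2-Rian-Mirg region. The 3p arms carried 81.0% of them. MiR-376b-3p (chr12:110961718-110961738) led with 85950 counts, a level of 3612 CPM, 16.4% of the stretch and rank 39 among the 2035 loci. It was followed by miR-494-3p at 2080.4 CPM, miR-379-5p at 1874 CPM, miR-376c-3p at 1687 CPM and miR-329-3p at 1648 CPM. MiR-495-3p, miR-323-3p, miR-666-3p and miR-376a-3p lay between 1141 and 1321 CPM, and miR-543-3p, miR-487b-3p and miR-299a-5p between 625 and 861 CPM. These 12 microRNAs held 82.2% of the wild-type counts of the stretch. At the other end, miR-1197-5p reached 17 counts, miR-654-5p and miR-654-3p were at 0 counts in wild-type, and the only read of the miR-654 hairpin in any column was 1 count of its 5p arm in Eed-/-. The 44 other members had at least 10 counts in wild-type.

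**Figure D1:**
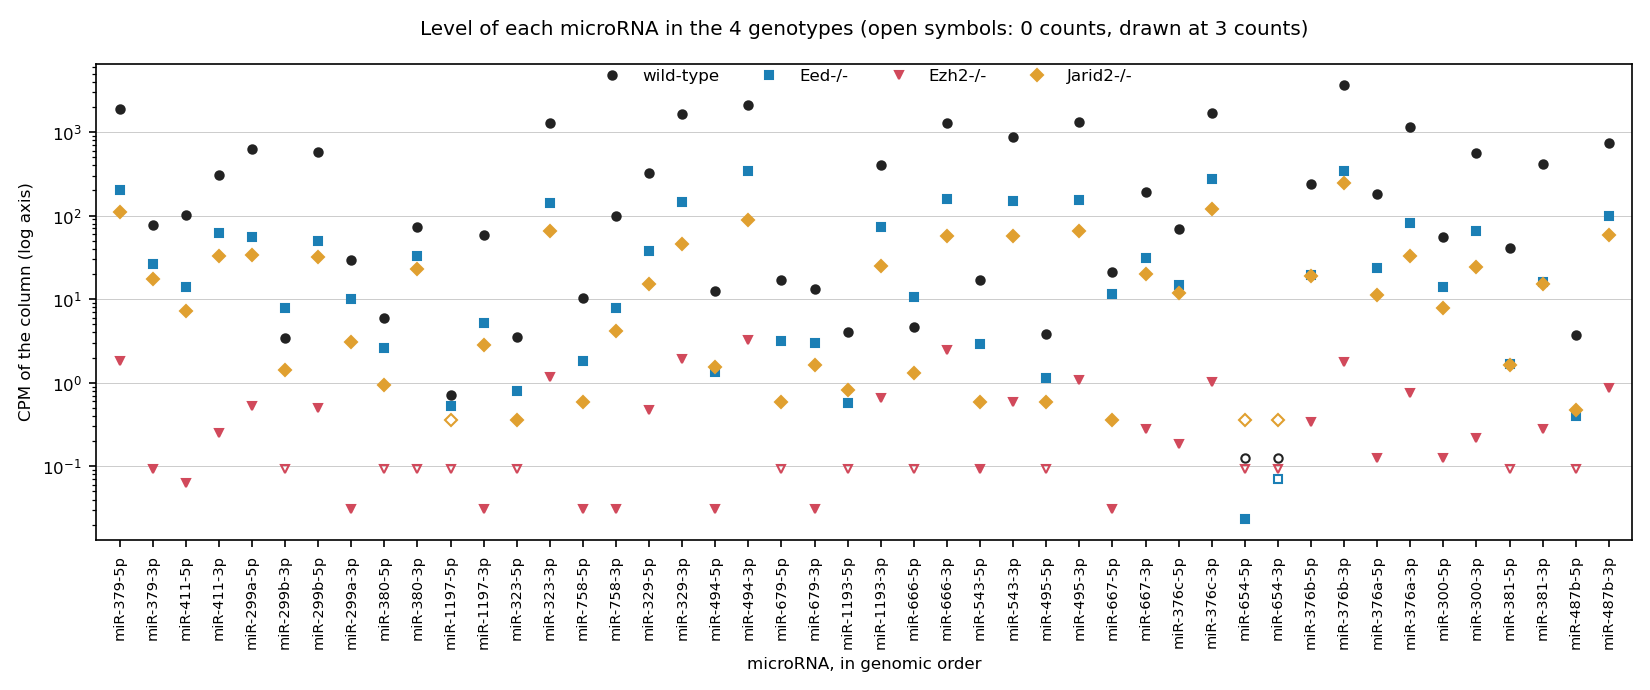
Level of each of the 46 microRNAs in the 4 genotypes, in CPM (log axis), in genomic order from miR-379-5p to miR-487b-3p. Open symbols mark 0 counts and are drawn at the level of 3 counts. Wild-type (circles) is highest for all but miR-666-5p, miR-299b-3p, miR-654-5p (1 count, in Eed-/-) and miR-654-3p (0 counts in every column), and Ezh2-/- (triangles) is lowest or at 0, with 13 members at 0 counts.

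All 3 mutants had less of these microRNAs than wild-type, and most members followed a common order of genotypes. The stretch as a whole kept 113764 counts in Eed-/-, a summed level of 2690 CPM against 22072 CPM in wild-type and 8.21-fold lower (8.15 to 8.26). Jarid2-/- had 10695 counts, 1260.3 CPM, 17.5-fold lower (17.2 to 17.9). Ezh2-/- had 678 counts, 21.1 CPM, 1044-fold lower (968 to 1127.5). Scaled by the larger denominators behind the deposited RPM values (all larger than the microRNA totals), the Eed-/- difference was 5.01-fold, and with TMM scaling the Ezh2-/- difference was 630.1-fold. Level by level, wild-type was above Eed-/-, Eed-/- above Jarid2-/- and Jarid2-/- above Ezh2-/- in 38 of the 44 members with at least 10 counts in some column. The same order held for 132 of all 1116 loci with such counts (11.8%), for 24 of 29 microRNAs downstream in Mirg and for 44 of 1012 loci (4.35%) outside the region. The other 6 members, miR-299b-3p, miR-1197-5p, miR-494-5p, miR-1193-5p, miR-666-5p and miR-487b-5p, had between 17 and 297 wild-type counts.

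A member was called lower or higher when its CPM, with 1 CPM added on each side, differed at least 2-fold, and it entered the comparison with 10 counts or more in either column, which 44 of the 46 had in every comparison with wild-type. In Ezh2-/- 43 of 44 were called lower, where 24.5% of all tested loci were. Jarid2-/- had 42 of 44 called lower against 22.8% of all loci, and Eed-/- 39 of 44 against 15% of all loci. The 39 members called lower in Eed-/- were also called lower in the other mutants. All 44 had at least 10 counts in wild-type, but 34 did in Jarid2-/- and 16 in Ezh2-/-, so the rest entered those comparisons through wild-type. With 1 CPM added the median log2 ratio of the 44 was -2.57 in Eed-/-, -3.66 in Jarid2-/- and -6.61 in Ezh2-/-, beside 0.08, -0.17 and -0.44 for all tested loci. With nothing added and members at 0 counts set to 3 counts, the median member was 6.69-fold lower in Eed-/-, 14.9-fold lower in Jarid2-/- and 696-fold lower in Ezh2-/-. In all of these comparisons the wild-type column is the shared reference, so they are not independent of each other.

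In Ezh2-/- cells these microRNAs were near the edge of detection. With 57 counts in Ezh2-/- beside 85950 in wild-type, miR-376b-3p differed 2033-fold (1569 to 2684), the lowest ratio of the stretch with 1 CPM added. MiR-376c-3p had 33 counts against 40133, 1639-fold lower (1167 to 2382). MiR-379-5p had 59 against 44586, 1019-fold lower (789.6 to 1338). MiR-494-3p kept the most reads of the stretch, 103 beside 49501 in wild-type, a 648-fold difference (534 to 794). MiR-666-3p kept 79 reads beside 30209, a 515-fold difference (413 to 651). Among the 28 members with at least 1000 wild-type counts, the ratio ran from 370.3-fold (169.7 to 1010.4) for miR-376c-5p, with 6 counts, to 3187-fold for miR-758-3p, where a lone count gives an interval from 571 to 125922. MiR-380-3p was the only one of the 28 with 0 counts, against 1750 in wild-type. It was at least 639-fold lower, and 786-fold lower when 0 is read as 3 counts. The 13 members at 0 counts in Ezh2-/- were the arms of miR-380, miR-654, the 5p arms of miR-1197, miR-323, miR-679, miR-1193, miR-666, miR-495, miR-381 and miR-487b, and miR-299b-3p. MiR-1197-5p, at 17 counts in wild-type, was the tested member not called, since the added 1 CPM is larger than its wild-type level.

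The few reads left in Ezh2-/- were spread over the members much as in wild-type. Over the 44 members, the counts of the 2 columns had a rank correlation of 0.939 (Spearman's rho, a description across members, which share columns and differ widely in abundance). The 12 leading microRNAs of wild-type held 81.6% of the remaining reads, against 82.2% in wild-type. Single members shifted: miR-376b-3p made up 8.41% (6.43 to 10.8%) of the stretch in Ezh2-/- against 16.4% in wild-type, while miR-666-3p made up 11.7% (9.33 to 14.3%) against 5.75%, and miR-494-3p 15.2% (12.6 to 18.1%) against 9.43%.

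Jarid2-/- cells kept far more of these microRNAs than Ezh2-/- cells, and among members with at least 1000 wild-type counts the difference from wild-type ran from 3.22-fold to 36.2-fold. MiR-329-3p, which shares its seed with miR-362-3p of chromosome X, stood at 386 counts beside 39203, the 36.2-fold difference (32.8 to 40.1). MiR-376a-3p had 278 against 27156, 34.8-fold lower (31.0 to 39.3). Its relatives in the family were less far from wild-type, with miR-376b-3p at 2073 counts and 14.8-fold lower (14.2 to 15.5) and miR-376c-3p at 1013 counts and 14.1-fold lower (13.3 to 15.1). MiR-494-3p was 23.8-fold lower (22.2 to 25.7) with 741 counts, and miR-381-3p 27.04-fold lower (22.7 to 32.4) with 130. The smallest difference among members with at least 1000 wild-type counts was that of miR-380-3p, 194 counts against 1750 and 3.22-fold lower (2.77 to 3.75). MiR-379-3p followed, with 148 against 1835 and 4.42-fold lower (3.74 to 5.26). MiR-299b-3p and miR-1197-5p were not called, and with nothing added miR-299b-3p was 2.41-fold lower (1.31 to 4.85) on 12 counts. In the direct comparison of Ezh2-/- with Jarid2-/-, 34 of 34 tested members were called lower in Ezh2-/-, where 33% of all loci were. At least 10 counts were reached by 34 members in Jarid2-/- and by 16 in Ezh2-/-. Many of the 34 thus entered only through the column where they are higher, and members below 10 counts in both were not compared.

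Eed-/- cells kept the most of these microRNAs. The 2 arms of miR-381 stood lowest against wild-type: miR-381-3p (chr12:110965080-110965101) went from 9856 wild-type counts to 682, a 25.7-fold difference (23.8 to 27.8). Its partner miR-381-5p went from 963 to 70, a 24.5-fold difference (19.2 to 31.6). Next came miR-376a-3p at 13.9-fold (13.5 to 14.5), miR-758-3p at 12.6-fold (11.2 to 14.2) and miR-376b-5p at 12.3-fold (11.4 to 13.3), and miR-329-3p lay at 11.5-fold (11.2 to 11.8). The abundant miR-376b-3p had 14604 counts and was 10.5-fold lower (10.3 to 10.6), miR-379-5p 8520 counts and 9.30-fold lower (9.09 to 9.52), and miR-494-3p 14330 counts and 6.14-fold lower (6.03 to 6.26). Among the 28 members with at least 1000 wild-type counts the difference ran from 2.26-fold to 25.7-fold, with a median of 8.28-fold. The smallest differences among these 28 were again those of miR-380-3p, 1376 counts against 1750 and 2.26-fold lower (2.11 to 2.43), and miR-379-3p, 1120 against 1835 and 2.91-fold lower (2.70 to 3.14). Scaled by the RPM denominators, these 2 were not called, with log2 ratios of -0.46 and -0.82.

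Low arms of Eed-/- cells did not all follow. MiR-666-5p had 450 counts against 111 in wild-type and was 2.28-fold higher (1.85 to 2.83), the 1 member called higher where 17.5% of all tested loci were. Its log2 ratio with 1 CPM added was 1.04, and 1.70 with the RPM denominators. With TMM or median-ratio factors it was not called, at 0.92 and 0.84. In Jarid2-/- it had 11 counts and was 3.60-fold lower (1.94 to 7.42), and in Ezh2-/- it had 0 counts, at least 39.9-fold lower. MiR-299b-3p had 327 counts against 81, 2.27-fold higher (1.78 to 2.93), just under the call with 1 CPM added (log2 ratio 0.99). It was called higher with totals that leave out the region and the miR-290 cluster, at 1.001, and with the RPM denominators, at 1.63. All bases of miR-299b-3p lie within miR-299a-3p, which was 2.86-fold lower (2.53 to 3.23) in Eed-/-. MiR-667-5p had 481 against 499 and was 1.84-fold lower (1.62 to 2.09) in Eed-/-, with 3 counts in Jarid2-/- (59.3-fold lower, 20.2 to 289). MiR-380-5p, at 109 against 140 counts, was 2.28-fold lower (1.76 to 2.96) but not called with 1 CPM added, and miR-1197-5p, at 22 against 17 counts, had an interval that spans no difference (0.685 to 2.71-fold lower).

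The counts of the other abundant members ran in the same direction, and are given for wild-type, Eed-/-, Jarid2-/- and Ezh2-/- in turn. MiR-329-3p had 39203, 6077, 386 and 61. MiR-376a-3p had 27156, 3461, 278 and 24. MiR-376c-3p had 40133, 11508, 1013 and 33. In CPM, each of these 3 decreased in that order of columns. The counts of miR-323-3p were 30658, 5918, 558 and 38, those of miR-495-3p 31436, 6456, 555 and 35 and those of miR-543-3p 20478, 6267, 485 and 19. For miR-666-3p they were 30209, 6637, 478 and 79, and for miR-487b-3p 17700, 4205, 491 and 28. Of these 5, miR-487b-3p was closest to wild-type in Jarid2-/-, at 12.9-fold lower (11.8 to 14.1), and miR-666-3p was farthest from it, at 22.5-fold lower (20.6 to 24.7). MiR-379-5p had 933 counts in Jarid2-/-, 17.04-fold lower (15.97 to 18.2), and miR-300-3p 207 there and 7 in Ezh2-/-.

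Members of intermediate level, some of them the stronger and some the weaker arm of their hairpin, are given in the same order of columns. MiR-411-3p had 7191, 2635, 282 and 8, and miR-411-5p 2447, 599, 61 and 2. MiR-329-5p had 7677, 1610, 129 and 15, and miR-376a-5p 4258, 1003, 96 and 4. The 5p arms of miR-376b and miR-376c had 5730, 827, 160 and 11 and 1648, 621, 100 and 6. In all 6 the Ezh2-/- column had 15 counts or fewer. MiR-667-3p had 4560, 1300, 171 and 9, miR-300-5p 1318, 595, 66 and 4 and miR-381-5p 963, 70, 14 and 0. MiR-758-3p had 2364, 333, 35 and 1 and miR-758-5p 243, 77, 5 and 1. For miR-679-3p and miR-679-5p the counts were 315, 126, 14 and 1 and 407, 132, 5 and 0, and for miR-543-5p 401, 123, 5 and 3. With 14 counts or fewer in Jarid2-/-, both arms of miR-679, miR-543-5p, miR-758-5p and miR-381-5p have wide intervals there.

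The smallest differences from wild-type with 1 CPM added in Jarid2-/- and Ezh2-/- were, apart from miR-380-3p in Jarid2-/-, those of low arms, where that addition weighs most. MiR-495-5p had 90 counts in wild-type, 48 in Eed-/-, 5 in Jarid2-/- and 0 in Ezh2-/-, which was 6.42-fold lower (2.65 to 20.2) in Jarid2-/- and at least 32.2-fold lower in Ezh2-/-. MiR-1193-5p had 97 counts in wild-type, 24 in Eed-/-, 7 in Jarid2-/- and 0 in Ezh2-/-, 4.94-fold lower (2.31 to 12.6) in Jarid2-/- and at least 34.8-fold lower in Ezh2-/-. The log2 ratios with 1 CPM added were -1.59 and -1.48 in Jarid2-/-. MiR-323-5p had 84, 34, 3 and 0 counts in the same columns, and miR-487b-5p 89, 17, 4 and 0, at least 30.03-fold and 31.9-fold lower in Ezh2-/-. These bounds are set by the wild-type counts of fewer than 100 and not by a measured remainder.

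Both arms were summed for the 22 hairpins with at least 100 wild-type counts, a choice made on the wild-type column, and neighbours differed in size. These hairpins were 2.26-fold to 25.6-fold lower in Eed-/- and 3.34-fold to 32.5-fold lower in Jarid2-/-. Those with reads in Ezh2-/- were 517-fold to 1880.5-fold lower there. The hairpin of miR-380, which lies 2.74 kb into the stretch, had the smallest fold in Eed-/- at 2.26-fold (2.11 to 2.42) and in Jarid2-/- at 3.34-fold (2.88 to 3.88), although no read of it was left in Ezh2-/- (at least 690.0-fold lower). Next to it, miR-1197, which starts 555 bp further on, was 10.2-fold (8.90 to 11.7) lower in Eed-/- and 20.7-fold (13.9 to 32.5) lower in Jarid2-/-. MiR-381 was 25.6-fold lower (23.7 to 27.6) in Eed-/- and 26.8-fold lower (22.7 to 31.8) in Jarid2-/-. MiR-487b, 518 bp further on, was 7.49-fold (7.24 to 7.75) and 12.8-fold (11.7 to 14.04) lower, and miR-300, 2511 bp before miR-381, was 7.76-fold (7.48 to 8.06) and 19.2-fold (17.0 to 21.7) lower. Differences this large between hairpins of 1 array exceed the counting intervals, but whether they would recur in other libraries was not tested.

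**Figure D2:**
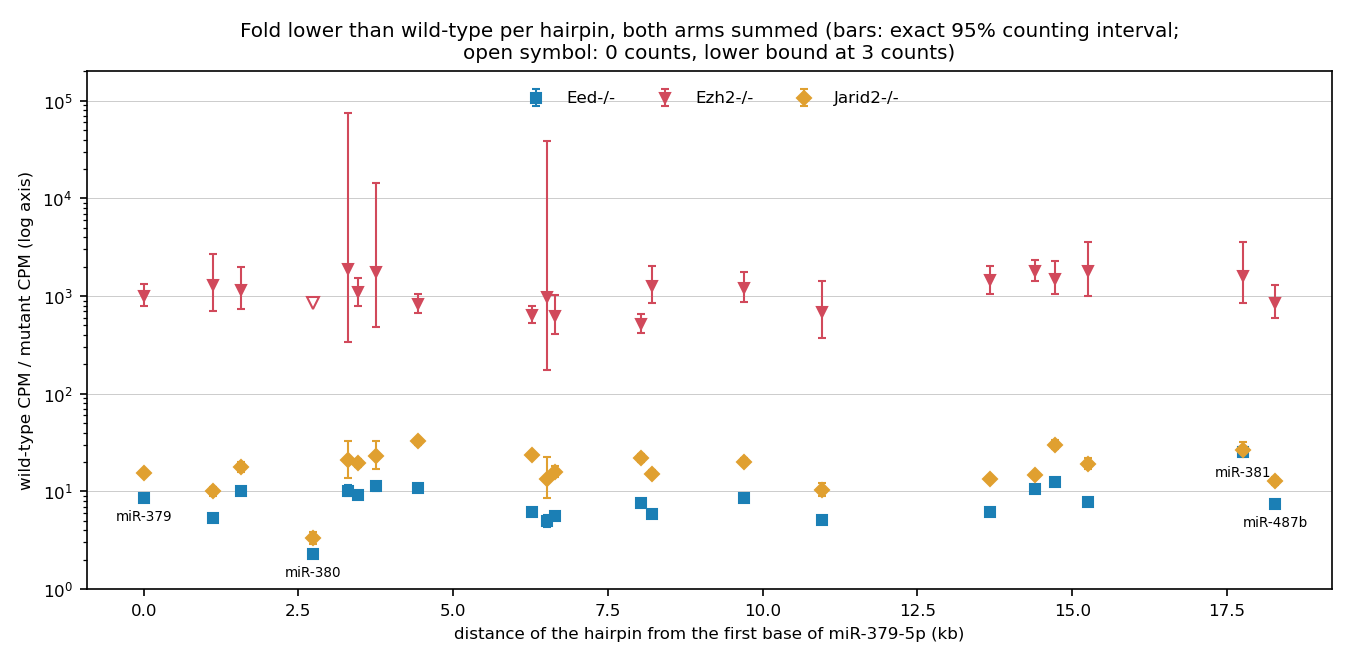
Wild-type CPM divided by mutant CPM for the plus-strand hairpins with at least 100 wild-type counts, both arms summed, against the distance from the first base of miR-379-5p in kb (log vertical axis, bars are exact 95% counting intervals, the open symbol is a lower bound at 3 counts). Eed-/- (squares) and Jarid2-/- (diamonds) show their smallest fold at miR-380 and meet at miR-381, and Ezh2-/- (triangles) lies between 517-fold and 1880.5-fold.

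Near-copies within the array differed from wild-type by unequal amounts. MiR-300-3p, which differs from miR-381-3p by the 3 substitutions given above, had 2773 counts in Eed-/- against 13392 in wild-type and was 8.58-fold lower (8.24 to 8.95), beside 25.7-fold for miR-381-3p. In Jarid2-/- the same microRNAs were 23.1-fold (20.1 to 26.6) and 27.04-fold lower, intervals that overlap. MiR-543-3p and miR-495-3p, with their common 3′ end, were 5.81-fold (5.65 to 5.98) and 8.66-fold (8.43 to 8.89) lower in Eed-/-, and 15.1-fold (13.8 to 16.5) and 20.2-fold (18.6 to 22.0) lower in Jarid2-/-. MiR-376b-5p and miR-376c-5p, 1 substitution apart, were 12.3-fold and 4.72-fold (4.30 to 5.18) lower in Eed-/-, and 12.8-fold (10.9 to 15.0) and 5.88-fold (4.80 to 7.27) lower in Jarid2-/-. The sources used here do not say how reads that match several of these sequences were assigned, so exchange of reads between near-copies was not tested.

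Members that share a seed were also summed, since they read the same target letters, and each sum was lower in the 3 mutants. The seed GGUAGAC of miR-379-5p and miR-1193-5p summed to 1878 CPM in wild-type, 202 CPM in Eed-/-, 110.8 CPM in Jarid2-/- and 1.84 CPM in Ezh2-/-, nearly all of it miR-379-5p. The seed AUGUAAC, shared by the 3p arms of miR-379 and miR-411, summed to 379 CPM in wild-type, 88.8 CPM in Eed-/-, 50.7 CPM in Jarid2-/- and 0.343 CPM in Ezh2-/-. For the seed UGGAUAU of miR-376b-5p and miR-376c-5p the sums were 310 CPM, 34.2 CPM, 30.6 CPM and 0.530 CPM in the same order. The seed AUGUGGG of miR-299a-3p and miR-299b-3p summed to 32.4 CPM, 17.9 CPM, 4.48 CPM and 0.0312 CPM in that order. For the seed GGUUGAC of miR-1197-5p and miR-758-5p the sums were 10.9 CPM, 2.34 CPM, 0.589 CPM and 0.0312 CPM. None of these 5 seeds occurred in a microRNA outside the stretch in the tables. By contrast, the seed of miR-381-3p was also that of miR-539-3p downstream in Mirg, and the seed of miR-495-3p that of miR-1192.

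The arms of a hairpin come from the same precursor, and their ratio needs no scaling between columns. In most hairpins the 3p arm dominated: its wild-type share was above 90% for miR-380, miR-1197, miR-323, miR-758, miR-494, miR-1193, miR-666, miR-543, miR-495, miR-667, miR-376c, miR-376b, miR-300, miR-381 and miR-487b. MiR-379 and miR-299a favoured the 5p arm, with 3p shares of 3.95% and 4.44%, and miR-679 had near-equal arms, with a 3p share of 43.6% (40.0 to 47.3%). No hairpin with at least 100 counts in both columns changed its dominant arm in Eed-/- or Jarid2-/-. Below that limit, miR-679 had a 3p share of 73.7% (48.8 to 90.9%) in Jarid2-/-, on 19 counts.

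In Eed-/- the weaker arm was less reduced than the stronger arm in many hairpins. The weaker arm was taken from the wild-type counts, and hairpins entered with at least 10 counts of each arm in both columns, which all 22 hairpins with wild-type reads had. The ratio of the weaker to the stronger arm was at least 2-fold higher than in wild-type in 10 of the 22 and in 27.9% of all 290 hairpins. A higher share of the weaker arm was thus also common elsewhere in this column. In all 290 the weaker arm was picked from the wild-type counts in the same way. MiR-299a and miR-299b, with ratios 3.96-fold and 26.2-fold higher, are 2 of the 10, and their arms share bases, so they may not count separately. No such count is given for Jarid2-/- or Ezh2-/-, since the filter would leave out hairpins whose weaker arm was lowest there, such as miR-667 and miR-1197, with 3 and 0 counts of the 5p arm in Jarid2-/-.

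Single hairpins show the size of the shift. The 3p share of miR-379 was 3.95% (3.78 to 4.13%) in wild-type, 11.6% (10.985 to 12.3%) in Eed-/- and 13.7% (11.7 to 15.9%) in Jarid2-/-, and 4.84% (1.01 to 13.5%) on 62 counts in Ezh2-/-. MiR-666 had a 3p share of 99.6% (99.6 to 99.7%) in wild-type, 93.7% (93.1 to 94.2%) in Eed-/- and 97.8% (96.0 to 98.9%) in Jarid2-/-. For miR-300 the share was 91.0% (90.6 to 91.5%) in wild-type, 82.3% (81.0 to 83.6%) in Eed-/- and 75.8% (70.3 to 80.8%) in Jarid2-/-. MiR-667 differed in direction between the mutants, from 90.1% (89.3 to 90.9%) in wild-type to 73.0% (70.9 to 75.04%) in Eed-/- but 98.3% (95.04 to 99.6%) in Jarid2-/-. MiR-411 had more of its stronger arm in the mutants, from 74.6% (73.7 to 75.5%) to 81.5% (80.1 to 82.8%) and 82.2% (77.8 to 86.1%). The 3p share of miR-381 differed little, at 91.1% (90.5 to 91.6%), 90.7% (88.4 to 92.7%) and 90.3% (84.2 to 94.6%).

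**Figure D3:**
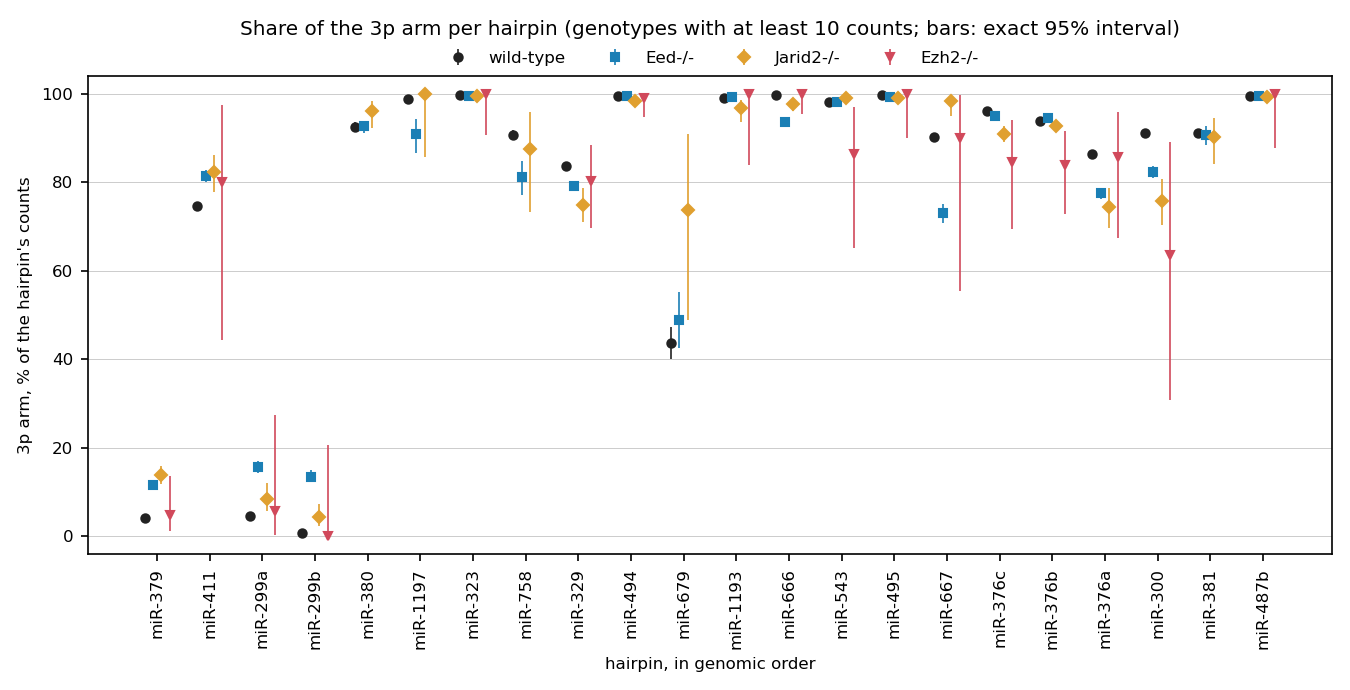
Share of the 3p arm in the counts of each hairpin (percent), in genomic order, for each genotype in which the hairpin had at least 10 counts, with exact 95% intervals. MiR-379, miR-299a and miR-299b are 5p-dominated, most others lie above 90%, and miR-667, miR-300 and miR-376a show the widest gaps between wild-type and a mutant among the 3p-dominated hairpins.

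MiR-299a and miR-299b need to be read together. Their hairpins lie on opposite strands of the same sequence (miR-299a-5p at chr12:110948854-110948875, miR-299b-3p opposite to it at chr12:110948855-110948872). All 21 bases of miR-299b-5p are bases 2 to 22 of miR-299a-5p, and all 18 bases of miR-299b-3p are the first 18 bases of miR-299a-3p. The 5p counts were close in every column, at 14869 and 13665 in wild-type, 2335 and 2107 in Eed-/-, 285 and 269 in Jarid2-/- and 17 and 16 in Ezh2-/-. MiR-299b-5p was 11.5-fold (11.01 to 12.1) lower in Eed-/-, 18.1-fold (16.1 to 20.5) in Jarid2-/- and 1151-fold (709 to 2015) in Ezh2-/-. The 3p counts lay further apart, at 691 for miR-299a-3p and 81 for miR-299b-3p in wild-type, 430 and 327 in Eed-/-, 26 and 12 in Jarid2-/- and 1 and 0 in Ezh2-/-. Whether any read came from the minus strand cannot be told from these counts, and without miR-299b the stretch was 8.17-fold lower in Eed-/-.

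Eed-/- and Jarid2-/- differed from each other by an amount that depended on the member. Jarid2-/- was at least 2-fold lower than Eed-/- in 18 of 44 members, where 18.9% of all loci were. MiR-494-3p stood at 339 CPM in Eed-/- and 87.3 CPM in Jarid2-/-, a 3.88-fold gap, and miR-329-3p at 144 CPM and 45.5 CPM, 3.16-fold. MiR-376b-3p was closer, at 345 CPM and 244 CPM, and miR-381-3p was nearly level, at 16.1 CPM and 15.3 CPM, as was miR-376b-5p at 19.6 CPM and 18.9 CPM. Against Eed-/-, Ezh2-/- was at least 2-fold lower in 40 of 44 members, where 35.7% of all loci were. All 44 had at least 10 counts in Eed-/-, beside 34 in Jarid2-/- and 16 in Ezh2-/-, so the rest entered through Eed-/-. The order of the members by count was much alike in Eed-/- and Jarid2-/- (Spearman's rho 0.953 over 44 members), with the same limits as above.

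Compared with the 31 loci downstream in Mirg, from miR-539 to miR-3072, the stretch was reduced by a similar factor in Jarid2-/- and by a larger one in Eed-/-. The downstream loci differed from wild-type 17.6-fold (17.1 to 18.0) in Jarid2-/-, 865-fold (793 to 944) in Ezh2-/- and 4.53-fold (4.50 to 4.56) in Eed-/-, in each case towards lower levels. The fold of the stretch divided by theirs was 0.998 (0.968 to 1.03) in Jarid2-/-, 1.21 (1.08 to 1.35) in Ezh2-/- and 1.81 (1.79 to 1.83) in Eed-/-, with approximate 95% intervals for counting error. The Eed-/- value turned on miR-541-5p, a downstream member at 58095 counts in Eed-/- beside 20219 in wild-type: without it the downstream loci were 7.67-fold lower and the quotient was 1.07. The Jarid2-/- quotient also depended on single members. It was 0.801 without miR-541-5p and 1.45 without the most abundant microRNA of each part. The stretch made up 61.2% of the Mirg counts in wild-type, 61.3% in Jarid2-/-, 56.6% in Ezh2-/- and 46.6% in Eed-/-. The 31 loci from miR-770 to miR-136 at the other end of the region were 7.42-fold, 18.3-fold and 1179-fold lower in Eed-/-, Jarid2-/- and Ezh2-/-, and the 6 loci of the Rian part 6.46-fold, 7.77-fold and 556-fold.

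**Figure D4:**
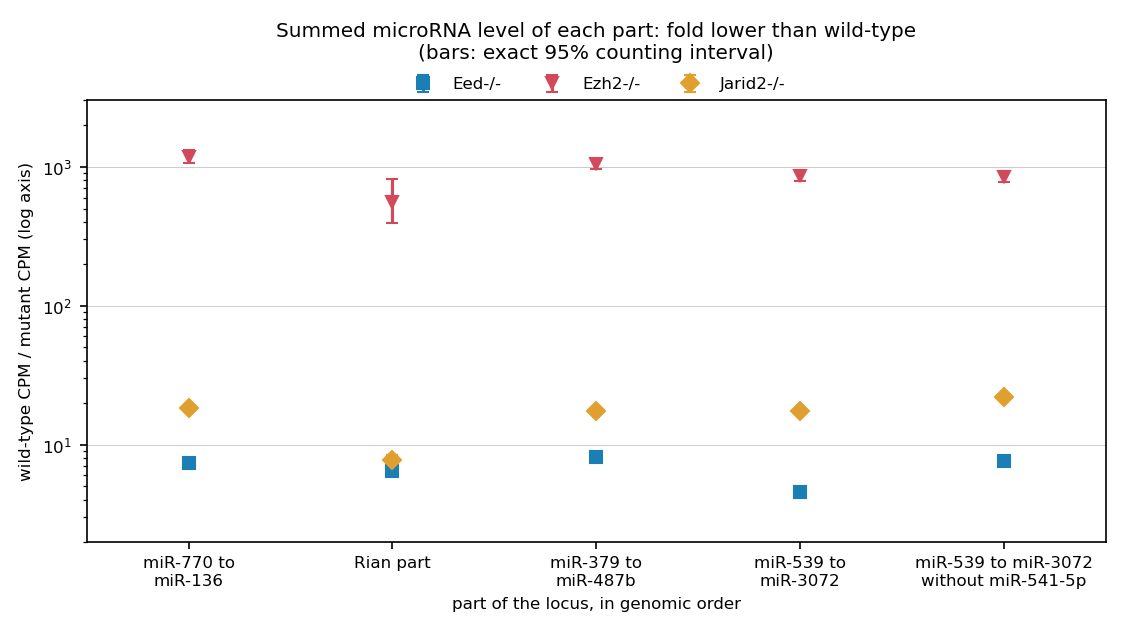
Summed wild-type CPM divided by summed mutant CPM (log axis) for the parts of the Gtl2-Rian-Mirg region in genomic order, with exact 95% counting intervals. The stretch from miR-379 to miR-487b lies at 8.21-fold in Eed-/-, 17.5-fold in Jarid2-/- and 1044-fold in Ezh2-/-, and the gap to the downstream loci in Eed-/- is nearly closed without miR-541-5p.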

How the data were processed

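Per the labels' protocols, total RNA was size-selected to 18 to 40 nt and sequenced by SOLiD. Cutadapt, Bowtie and mm9 appear in the submitters' processing notes. Their versions, mismatch settings and the handling of reads with several matches are not stated there. Per the file headers, each of the 4 deposited tables gives a read count per mature locus of miRBase release 20 and the same value as RPM. Count divided by RPM gave the authors' denominators, 246316316 (wild-type), 267248746 (Eed-/-), 243895676 (Ezh2-/-) and 62259756 (Jarid2-/-), of which microRNA counts were 9.66%, 15.8%, 13.2% and 13.6%. All columns were assigned, by their names, to genotypes. The labels' small RNA samples are separate samples, but the columns carry no replicate.

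From the counts, CPM of the column total and log2 ratios with 1 CPM added (which understates the change of low loci) were computed. Clopper-Pearson and conditional binomial intervals were computed with scipy 1.17.1. Size factors came from edgeR 4.0.16 for TMM and DESeq2 1.42.0 for median ratios. No count model could be fitted with 1 column per genotype. The fold calculation was tested on simulated data. Members, comparison parts and alternatives were chosen with earlier results of these data known. Named with values, beside the remaining members by range, were the 12 highest in wild-type, the 5 highest and 5 lowest ratios per mutant (at least 50 counts in 1 of the 2 columns), minus-strand members, hairpins with at least 100 wild-type counts in each arm, and miR-376b-3p and miR-381-3p. Mature sequences are those of the deposited tables. Chromatin, messenger RNA and the remaining small RNA data were not analysed here, so the genotype labels were not checked on the targeted genes.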

Additional observations from a re-analysis of the deposited data

Results flagged for a closer look

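For 2 members the mutants lay on opposite sides of wild-type, with intervals that do not reach 1. MiR-666-5p was 2.28-fold higher than wild-type in Eed-/- and lower in Ezh2-/- and Jarid2-/-. MiR-299b-3p was 2.27-fold higher in Eed-/- and lower in the same 2 mutants. With 1 column per genotype the difference between mutants was not tested. Both are weaker arms with few wild-type counts (111 and 81). All 18 bases of miR-299b-3p are the first 18 of miR-299a-3p, which was 2.86-fold lower in Eed-/- (430 counts against 691). Summed, miR-299a-3p and miR-299b-3p stood at 32.4 CPM in wild-type and 17.9 CPM in Eed-/-. A rise of miR-299b-3p as a separate microRNA cannot be read from these counts.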

How the results depend on the processing

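No paired analysis was possible because the tables give 1 column per genotype with no replicate number, and for the same reason no replicate could be left out. All summed levels stayed below wild-type under the alternatives run. With TMM, median-ratio factors, totals without the region and the miR-290 cluster, and the RPM denominators, the stretch in Eed-/- was 8.95-fold, 9.57-fold, 8.12-fold and 5.01-fold lower. In Ezh2-/- it was 630.1-fold lower with TMM, 729-fold with median-ratio factors and 767-fold with the RPM denominators. In Jarid2-/- it was 19.0-fold lower with median-ratio factors, 19.5-fold with totals without the region and the miR-290 cluster and 12.4-fold with the RPM denominators. Without the miR-299 and miR-376 members, which have same-numbered relatives, the values were 7.69-fold (Eed-/-), 877-fold (Ezh2-/-) and 18.5-fold (Jarid2-/-).

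The number of members called lower stayed within 1.5 times under every scaling, filter and pseudocount tried, between 30 and 41 in Eed-/-, 33 and 44 in Ezh2-/- and 33 and 44 in Jarid2-/-. The number tested also differed. Without members with same-numbered relatives the calls were 30 of 34 in Eed-/-, 33 of 34 in Ezh2-/- and 33 of 34 in Jarid2-/-. With 10 CPM added they were 30, 36 and 33 of 44. With arms summed per hairpin it was 22 of 22 in each mutant, since fewer units are counted. No share over all hairpins is given beside that count. The RPM denominators moved the median log2 ratio of all loci to 0.52 in Eed-/-, where the member median was -1.91, and TMM moved it from -0.44 to 0.09 in Ezh2-/-. Of 492 values of named members under other scalings, 480 kept their call and 0 changed sign from a called value. The 12 others were all in Eed-/-, among them miR-666-5p, not called higher with TMM (log2 ratio 0.92) or median-ratio factors (0.84), and miR-299b-3p, called higher with totals without the region and the miR-290 cluster (1.001) and with the RPM denominators (1.63).

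The quotient of the fold of the stretch and that of the downstream loci was 1.70, 1.01 and 1.04 in Eed-/-, Ezh2-/- and Jarid2-/- without members with same-numbered relatives. Without the most abundant microRNA of each part (miR-376b-3p and miR-409-3p) it was 2.05, 1.05 and 1.45. Without miR-541-5p, left out after the data were seen, as was miR-299b in the other added alternative, it was 1.07 in Eed-/- and 0.801 in Jarid2-/-. Depth limits the low arms in Jarid2-/-, the shallowest column, where 34 of the 46 members had at least 10 counts. In Ezh2-/-, deeper than wild-type, 16 had.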
